A study of Mus musculus with 4 samples.

Results

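Macrophages and other white blood cells share a set of marker genes that serve as a gauge of how much of their RNA a mixed sample holds. Described here are 10 such genes in arrays of mouse Kupffer cells and SL4 colon carcinoma cells: C1qa, C1qb, C1qc, Lyz2, Cd68, Cd5l, Csf1r, Slc11a1, Laptm5 and Id3. They are 10 of the 18193 genes named on the array and were picked by symbol, after earlier results of these data had shown some of them above background. All 18 probe sets that the platform annotation gives to 1 of these symbols alone were taken. Since the level of the genes chose them, their levels are a description with no test.

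The study had 4 groups with 1 array each. Kupffer cells came from 12-week-old female C57BL/6 mice, either wild type or Clec4n-/-, which lack the gene for Dectin-2, a lectin receptor for fungal sugars. They were sorted as CD45+ CD11b+ F4/80+ cells, and 100000 of them were kept for 8 hours with or apart from 100000 SL4 cells, a colon carcinoma line on the C57BL/6 background. Of the cells in culture, only the Kupffer cells of the knockout groups carried the deletion of Clec4n, and the SL4 cells were the same in all groups. Where the cells were apart, RNA from the 2 dishes was combined after extraction, and every array therefore carries RNA of Kupffer and SL4 cells. The number of mice behind each array is not given in the labels.

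Kupffer cells line the sinusoids of the liver, where they clear particles, dying red cells and microbes from portal blood. C1qa, C1qb and C1qc encode the chains of C1q, the recognition subunit that starts the classical complement pathway, which macrophages make in large amounts. Lyz2 encodes the lysozyme of myeloid cells, Cd68 a glycoprotein of late endosomes, and Cd5l a secreted scavenger-like protein of tissue macrophages. Csf1r is the receptor that keeps macrophages alive, Slc11a1 pumps metal ions out of phagosomes, and Laptm5 sits in lysosomes of blood cells. Id3 holds back E protein transcription factors and belongs to the identity programme of Kupffer cells, but many other dividing cells express it as well.

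The 2 member genes that passed the test as higher in co-culture, as set out further on, were Slc11a1 and C1qb. Their upstream sequences are shown with that of C1qc, the neighbour of C1qb in the gene table, whose signal stayed under the array median. Each runs over the 250 bases before an annotated start, 5′ to 3′ in the direction of the gene, from RefSeq promoters of GRCm38.p6. Capitals mark GAGGAA or its reverse complement, the core of the box bound by PU.1, the master factor of myeloid cells.
Slc11a1, chr1:74374953-74375202, plus strand: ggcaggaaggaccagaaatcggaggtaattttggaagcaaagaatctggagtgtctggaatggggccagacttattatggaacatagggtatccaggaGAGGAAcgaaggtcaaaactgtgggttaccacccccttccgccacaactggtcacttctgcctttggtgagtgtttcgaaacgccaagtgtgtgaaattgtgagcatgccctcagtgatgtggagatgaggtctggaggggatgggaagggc
C1qb, chr4:136886201-136886450, minus strand: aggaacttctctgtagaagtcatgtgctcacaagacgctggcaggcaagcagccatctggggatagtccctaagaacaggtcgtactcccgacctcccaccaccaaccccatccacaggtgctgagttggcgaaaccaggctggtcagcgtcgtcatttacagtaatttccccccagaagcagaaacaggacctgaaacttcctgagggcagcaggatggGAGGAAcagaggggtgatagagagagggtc
C1qc, chr4:136892915-136893164, minus strand: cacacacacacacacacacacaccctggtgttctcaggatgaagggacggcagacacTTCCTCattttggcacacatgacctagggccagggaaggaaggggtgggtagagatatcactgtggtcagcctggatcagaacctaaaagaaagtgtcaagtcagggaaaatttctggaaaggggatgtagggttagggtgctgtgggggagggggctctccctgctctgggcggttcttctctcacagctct

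Windows of 8 of the 10 genes were searched, all but C1qa and Csf1r. For the members 1 chromosome was left out of the search, while the count over all windows kept it. GAGGAA, searched on both strands, was found in 7 of the 8 windows, and in 23.3% of all 32851 windows of this length. Upstream of C1qc it stands as its reverse complement, and upstream of Slc11a1 and C1qb in the direction of the gene. The AP-1 letters TGAGTCA or TGACTCA were found in 1 of the 8, that of Cd68, against 4.46% of all windows. No match overlapped another in these windows. These are matches of letters only, and they say nothing of binding.

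Many of the members' probe sets lay near the median signal of all probe sets, used here as a floor, or under it. This floor is not a limit of detection. The floor used here was a signal of 76.1, at which the 45037 probe sets of the 4 arrays divide evenly. Of the 18 probe sets, 9 lay above it on all 4 arrays and 9 lay under it on all 4, with 0 in between. Of all 45037 probe sets, 20926 lay above it on all 4 arrays, a share near that of the members. By gene, 8 had a probe set above the floor and 2, C1qa and C1qc, did not. Judged by this floor, the description "above background" does not hold for those 2. On the level that chose the genes, the lowest inside was Lyz2 at 1.39 times the array median on average, and the highest outside was C1qc at 0.476 times. Signals of different probe sets depend on their probes and do not rank the amounts of RNA.

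**Figure D1:**
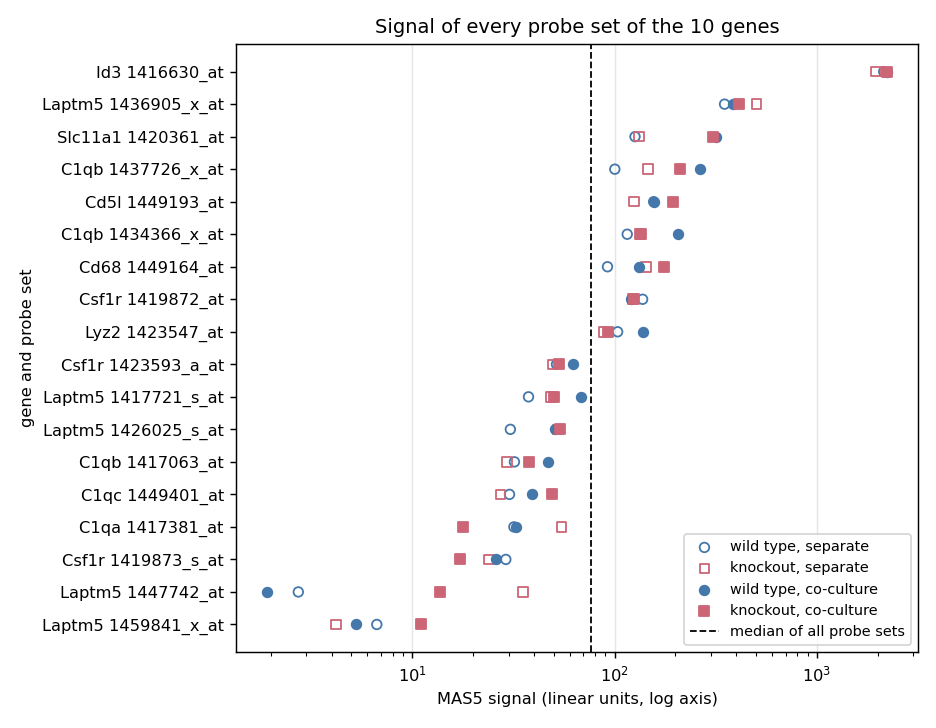
Signal of all 18 probe sets of the 10 genes on a log axis, 1 point per array, with the floor of 76.1 as a dashed line. Of the 18 probe sets, 9 lie to the right of the line on all 4 arrays, and those of C1qa and C1qc lie to its left.

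The chains of C1q were unevenly measured. The probe set of C1qa read 31.8 and 54.5 in wild-type and knockout separate culture, and 32.6 and 17.9 in wild-type and knockout co-culture. That of C1qc read 30.2, 27.2, 39.0 and 48.9 in the same order. Both stayed under the floor, and neither gives a ratio.

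C1qb had 3 probe sets, which disagreed in level. The brightest read 100.3 in wild-type separate culture, 147 in knockout separate culture, 264 in wild-type co-culture and 211 in knockout co-culture. Both co-culture arrays lay above both separate arrays. The second read 115, 133, 205 and 134, with only the wild-type co-culture array standing apart. The third read 32.0, 29.3, 47.0 and 37.6, all under the floor. The names of the brighter probe sets end in _x_at, which the maker gives to probe sets whose probes can also match other transcripts.

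Slc11a1 gave the clearest split by culture. Its 1 probe set read 126 in wild-type separate culture and 132 in knockout separate culture, against 317 and 305 in wild-type and knockout co-culture. The conditions did not overlap, and the genotypes lay close together within each. With 2 arrays against 2, an exact test of order cannot give a p under 0.333. The share of all probe sets split in this way was not counted, here or for C1qb, Lyz2 and Cd68. In separate culture it stood at 1.74 times the array median in both genotypes, and in co-culture at 4.05 times in wild type and 3.94 times in knockout.

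Lyz2, Cd68 and Cd5l lay just above the floor. Lyz2 read 104 in wild-type separate culture, 88.2 in knockout separate culture, 138 in wild-type co-culture and 92.6 in knockout co-culture, with both knockout arrays under both wild-type arrays. Cd68 read 92.2, 143, 132 and 175 in the same order, and here the knockout arrays were the higher ones. Cd5l read 156, 125, 156 and 195, and its knockout arrays were the lowest and the highest. Lyz2 fell between the 52.0 and 57.7 percentiles of its arrays, Cd68 between 53.3 and 61.1, and Cd5l between 56.6 and 62.6.

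Csf1r and Laptm5 each passed the floor through 1 of several probe sets. For Csf1r that probe set read 138 in wild-type separate culture, 123 in knockout separate culture, 120 in wild-type co-culture and 125 in knockout co-culture, a narrow range with no order by condition. Its other 2 probe sets read between 17.3 and 62.0. For Laptm5 the brightest of 5 read 350, 502, 384 and 410, the knockout separate array being the highest. Its other 4 read between 1.92 and 68.5, so that the gene's level rests on 1 probe set, again one named _x_at. With the median over probe sets in place of the brightest, Csf1r stood at 0.710 times and Laptm5 at 0.590 times the array median, against 1.66 and 5.41 times.

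Id3 was far above the floor, at 2140 in wild-type separate culture, 1960 in knockout separate culture, 2210 in wild-type co-culture and 2232 in knockout co-culture. It lay between the 90.6 and 91.8 percentiles of its arrays. The knockout separate array was the lowest of the 4. As a gauge of Kupffer cell RNA it is limited by its wide expression, since the share of its signal that came from SL4 cells was not measured.

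The cell type of the label was checked against its defining markers, and most of these were under the floor. Of the proteins used in the sort, Ptprc, which encodes CD45, read 13.8 to 36.4 over the 4 arrays, Adgre1, which encodes F4/80, 16.8 to 35.8, and Itgam, which encodes CD11b, 0.456 to 24.3. Clec4f, Vsig4 and Timd4, surface proteins typical of Kupffer cells, read at most 58.0, 66.5 and 20.2. Of 24 pan-macrophage and leukocyte markers on the array, 4 lay above the floor on all 4 arrays: Cd53, a leukocyte tetraspanin, Fcer1g and Tyrobp, signalling adaptors of myeloid receptors, and Lgals3, a galectin of many cell types. Of 16 Kupffer cell identity genes, which include Cd5l and Id3, 6 did so. Among them were Axl, a receptor for dying cells, Hmox1, the haem-degrading enzyme, and Id1. Beside these and the list counts below, 20926 of all 45037 probe sets did so, though the lists count only the brightest probe set of each gene. Clec4n itself read 14.2 and 17.6 in the wild-type arrays and 8.29 and 8.19 in the knockout arrays on its brighter probe set, all under the floor, and whether its probes lie in the deleted part is not known.

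Of cell types that were not put in culture, all 8 neutrophil, 8 T and NK cell, 6 B cell and 7 sinusoidal endothelial markers measured were under the floor on every array. Of 9 dendritic cell markers, 2 lay above it on all 4 arrays: Zbtb46, a transcription factor of dendritic cells, at 206 to 277, and Cd74, the invariant chain of MHC class II, at 81.2 to 131. H2-Aa, an MHC class II chain, passed it on the wild-type co-culture array alone, at 164 against 14.8 to 56.0 on the others. Of 8 hepatocyte genes, 3 lay above it on all 4 arrays: Alb at 324 to 347, Apoa1, an apolipoprotein, at 78.6 to 142, and Ttr, transthyretin, at 83.0 to 156. The summed signal of the hepatocyte list was 685 and 743 in wild-type and knockout separate culture and 650 and 639 in co-culture. Its part in the levels of the members was not tested. As a further background, 71 odorant and vomeronasal receptor genes had a median of 4.06, and 1 of them passed the floor. Their summed signal was 417.5 and 485 in the separate arrays and 605 and 595 in the co-culture arrays, a difference by culture whose part in the members' changes was not tested.

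**Figure D2:**
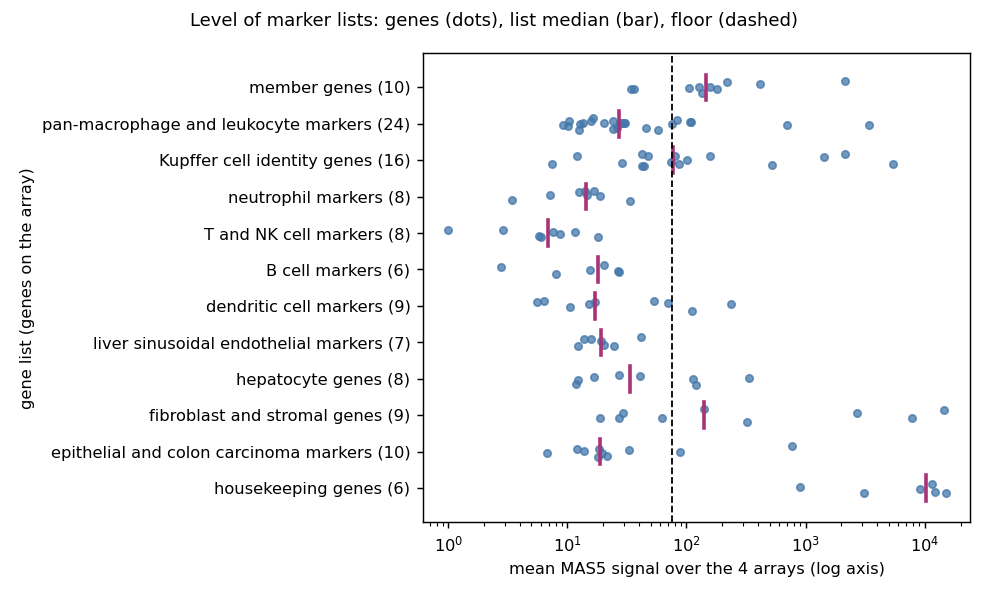
Mean signal of each gene over the 4 arrays on a log axis, by marker list, with the list median as a bar and the floor of 76.1 as a dashed line. All measured neutrophil, T and NK, B and sinusoidal endothelial markers lie left of the line, and the pan-macrophage list has its median there at 26.9.

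The culture comparison asked what changes when Kupffer cells and tumour cells share a dish. Slc11a1 rose 2.41-fold in co-culture and C1qb 1.94-fold on its brightest probe set, and no member passed the test as lower. For Slc11a1 the log2 change was 1.27 ± 0.22 (SE, 2 arrays per condition, adjusted p = 0.00172). For C1qb it was 0.96 ± 0.24 (SE, adjusted p = 0.0264), while its second probe set did not pass at 0.42 ± 0.23 (SE, adjusted p = 0.352). Thus 2 of the 8 genes above the floor passed the test as higher, where 2.44% of the 24189 probe sets tested did so and 3.03% passed as lower. Both were already known from earlier results when the genes were chosen, so this count is not independent of the choice.

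The test was an additive limma fit over all 4 arrays, in which the genotypes serve as a block and 1 residual degree of freedom remains, with Benjamini-Hochberg adjustment over all probe sets tested. Nothing in the labels says that the arrays stand for separate animals or cultures beyond the groups. Its p-values therefore do not measure the spread between animals or cultures, and they hold for these 4 samples only. The variance of each probe set was drawn towards that of probe sets of like signal, with 15.2 prior degrees of freedom beside the 1 residual. The SE of Slc11a1 and C1qb thus rest mostly on other probe sets. Without the intensity trend in the variance, both calls were lost, with adjusted p = 0.0907 for Slc11a1 and 0.214 for C1qb, and over all probe sets with no filter they were 0.739 and 1. After quantile normalization Slc11a1 was kept at 0.0144 and C1qb lost at 0.0858.

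The remaining 6 genes above the floor did not pass. Cd68 had a log2 change of 0.40 ± 0.20 (SE), Cd5l of 0.32 ± 0.23 and Lyz2 of 0.24 ± 0.19, with adjusted p between 0.305 and 0.560. Id3 was at 0.12 ± 0.07, Laptm5 at -0.08 ± 0.17 and Csf1r at -0.09 ± 0.20. The median of the 8 was 0.28, beside 0.0064 over all probe sets tested. The estimates ran from -0.09 for Csf1r to 1.27 for Slc11a1, and differences between genes were not tested. In mixed RNA, fewer cells of a type and less RNA per cell cannot be told apart.

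Markers of stromal and epithelial cells were set beside these changes. Of 9 fibroblast and stromal genes, 0 passed as higher and 1 as lower, Col3a1, a fibrillar collagen, at -0.52 ± 0.07 (SE, adjusted p = 0.000179). Acta2, smooth muscle actin, was at -0.66 ± 0.19 (SE, adjusted p = 0.0545), and Pdgfrb, a growth factor receptor of stromal cells, at -0.64 ± 0.21 (SE, adjusted p = 0.103). The list had a median of -0.37 over the 6 genes tested. Col3a1, Acta2 and Pdgfrb all lay below it, and the others tested are not shown. The summed signal of the list was 28461 and 24827 in wild-type and knockout separate culture and 24937 and 23685 in co-culture. Its brightest gene was Vim, with a mean signal of 14373. Of 10 epithelial and colon carcinoma markers, 2 were tested and 0 passed. Only Spint1, a protease inhibitor, lay above the floor on all arrays. The summed signal of the 10 was 1002 and 937 in separate culture and 999 and 1051 in co-culture. The part of either list in the changes of the members was not tested.

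**Figure D3:**
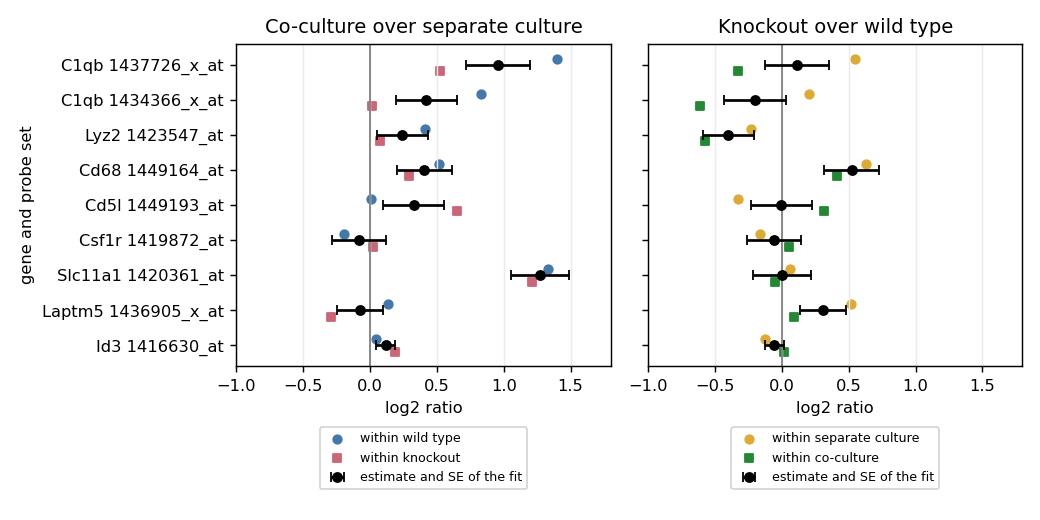
Log2 ratios of the 9 probe sets above the floor, co-culture over separate culture on the left and knockout over wild type on the right. Black points with bars are the estimates of the fit with their SE, and coloured points are the ratios of the array pairs, such as 1.33 and 1.21 for Slc11a1 within wild type and knockout.

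Taken 1 genotype at a time, the array pairs gave no test but showed which genes repeat. Slc11a1 was 2.51-fold higher in wild-type co-culture and 2.32-fold higher in knockout co-culture. C1qb was 2.63-fold higher in wild type and 1.44-fold higher in knockout on its brightest probe set, and 1.78-fold and 1.01-fold on the second. Its estimate of 1.94-fold thus became 1.44-fold without either wild-type array and 2.63-fold without either knockout array. At least 2-fold higher were 2 of the 8 genes in wild type, where 0.829% of probe sets were, and 1 in knockout, where 0.626% were. None of the 8 was 2-fold lower in either genotype, beside 0.453% and 0.566% of probe sets.

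Cd68 was 1.43-fold and 1.23-fold higher in wild-type and knockout co-culture, and Lyz2 1.33-fold and 1.05-fold. Cd5l had the same signal in both wild-type arrays, at a log2 ratio of 0.0028, and was 1.56-fold higher in knockout co-culture. Laptm5 had log2 ratios of 0.14 in wild type and -0.29 in knockout, and Csf1r of -0.19 and 0.02. In all, 6 of the 8 genes had the same direction in both genotypes, as had 59.0% of all probe sets tested. That share counts probe sets under the floor on both arrays of a pair as not alike. It therefore runs low beside the 8 genes, which lay above the floor on all arrays.

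**Figure D4:**
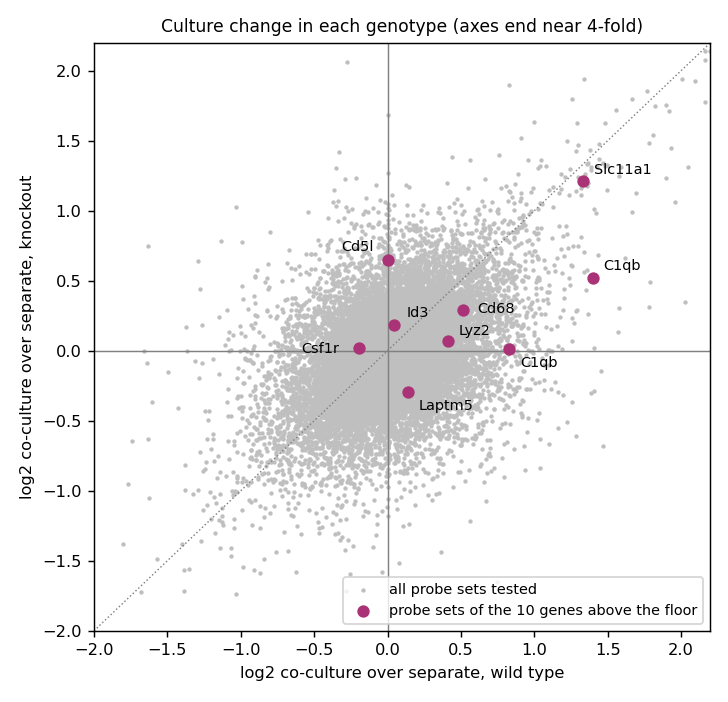
Log2 ratio of co-culture over separate culture in wild type, across, and in knockout, upwards, with all 24189 probe sets tested in grey and the members' probe sets above the floor in purple. Probe sets beyond the axes are not drawn. Slc11a1 lies near the dotted line of equal change at 1.33 and 1.21, and the C1qb probe sets lie below it.

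The genotype comparison asked what differs where Dectin-2 is missing. In the additive limma fit 0 of the 8 genes passed, where 0.145% of all probe sets did. At an unadjusted p under 0.05 there was 1 of the 8, Cd68, where 9.25% of probe sets were. Cd68 had a log2 difference, knockout over wild type, of 0.52 ± 0.20 (SE, 2 arrays per genotype, adjusted p = 0.431), at 1.55-fold higher in separate culture and 1.33-fold higher in co-culture. Lyz2 pointed the other way, at -0.40 ± 0.19 (SE, adjusted p = 0.545), with log2 differences of -0.23 in separate culture and -0.57 in co-culture. Laptm5 was at 0.31 ± 0.17, and Slc11a1, C1qb, Cd5l, Csf1r and Id3 lay between -0.06 and 0.11. The median of the 8 was 0.00035, beside 0.00099 over all probe sets tested.

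None of the 8 was 2-fold apart between the genotypes. In separate culture 0.177% of probe sets were at least 2-fold higher and 0.168% lower in knockout, and in co-culture 0.136% and 0.191%. The difference between the culture changes of the genotypes takes all 4 arrays and leaves no residual, so it is a value with no test. It was -0.87 and -0.82 on the log2 scale for the brighter probe sets of C1qb, the knockout change being the smaller, 0.64 for Cd5l and -0.12 for Slc11a1.

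Among relatives and partners of the members, Slc11a2, which encodes the metal importer DMT1 found in most cells, also rose in co-culture. Its brightest probe set read 1201 in wild-type separate culture, 957 in knockout separate culture, 2365 in wild-type co-culture and 2102 in knockout co-culture. It rose by 1.06 ± 0.08 on the log2 scale (SE, adjusted p = 3.07e-07), and its second probe set by 0.81 ± 0.13 (SE, adjusted p = 0.00116). Its other 2 probe sets, also above the floor on all arrays, did not pass, at 0.34 ± 0.19 and 0.31 ± 0.21 (SE, adjusted p = 0.354 and 0.477). It was the 1 gene that passed as higher among 7 of phagosomal iron handling, with 0 lower. Hmox1 had a log2 change of 0.40 ± 0.14 (SE, adjusted p = 0.115), and Tfrc, the transferrin receptor, of 0.02.

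Of 15 other complement genes on the array, 6 lay above the floor on at least 1 array and were tested. Of these, 0 passed as higher and 1 as lower, Masp1, a protease of the lectin pathway, at -0.81 ± 0.21 (SE, adjusted p = 0.0328). C3ar1, a receptor for a fragment of C3, read 352 and 352 in separate culture and 276 and 253 in wild-type and knockout co-culture, and did not pass at -0.41 ± 0.19. Cfp, properdin, read 136 and 134 in the wild-type arrays and 184 and 221 in the knockout arrays. In the axis of Csf1r, 6 of 12 genes were tested and 0 passed in either direction. Csf1, its main ligand, read 3015 and 3104 in separate culture against 3914 and 3390 in co-culture, a log2 change of 0.25 ± 0.07 (SE, adjusted p = 0.0629), while Il34, the other ligand, passed the floor on 1 array.

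Of 10 genes of the Id family, its E protein partners and upstream signalling, 9 were tested and 0 passed. Id1 was at 0.27 ± 0.08 (SE, adjusted p = 0.0599) and Id2 at -0.08 ± 0.07. Of 6 lysosomal membrane relatives of Laptm5 and Cd68, such as Laptm4a and Lamp1, 0 passed, with a median log2 change of -0.03. Lyz1, the Paneth cell lysozyme and near copy of Lyz2, read 97.0 to 122 on its brightest probe set, one named _x_at. Its other probe sets stayed under the floor on every array, at 72.6 or less. Signal of the pair could not be assigned to 1 gene with certainty. Of the 24 pan-macrophage and leukocyte markers, 6 were tested. Among those, 0 passed as higher and 1 as lower, Lgals3 at -0.44 ± 0.07 (SE, adjusted p = 0.000912). Tyrobp was at 0.56 ± 0.19 (SE, adjusted p = 0.103), and Cd53 at 0.02 ± 0.13. Of the 16 Kupffer cell identity genes, 9 were tested and 0 passed.

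The summed signal of the 24 markers was 5315 and 5458 in wild-type and knockout separate culture and 4504 and 4395 in co-culture, most of it from Lgals3. None of the lists of the members' relatives had a gene that passed the genotype comparison.

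By the likeness of their patterns over the 4 arrays, the nearest probe sets to Slc11a1 belonged to Rgs16, a regulator of G protein signalling, Syt7, a calcium sensor of exocytosis, and Flrt3, an adhesion protein. Likeness was the root mean square difference of log2 signals after each probe set's own mean was taken off, over 18422 named probe sets above the floor on all arrays, and it was 0.03, 0.04 and 0.04. Rgs16 read 350.4 and 349.5 in separate culture and 892 and 836 in co-culture. For C1qb the nearest were Soga3, Bcl2l11, which encodes the cell death protein Bim, and Mrpl21, a mitochondrial ribosomal protein, at 0.06, 0.07 and 0.09. Over 4 arrays this is a description only.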

How the data were processed

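The arrays gave 1 MAS5 signal intensity per probe set on a linear scale, made by the authors with Affymetrix Expression Console 1.4, per the submitters' processing notes. MAS5 takes off a local background and brings all arrays to 1 mean level, so values are relative within an array. The trimmed mean was 497 or 498 on all 4 arrays. The number of arrays limits the precision.

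Signals were raised to a floor of 76.1, the middle value of the 45037 probe sets on the 4 arrays, and log2-transformed. Probe sets above the floor on at least 1 array, 24189, entered an additive model of culture and genotype (limma 3.58.1 in R 4.3.3, lmFit and eBayes with trend, 1 residual degree of freedom). P-values were adjusted over all of them by Benjamini-Hochberg, with 0.05 as threshold. The fit was tried on simulated data, with changes put only into probe sets more than 2-fold above the floor and alike in both genotypes. It called 68% of the 1.5-fold changes, 92% of the 2-fold changes and 10 unchanged probe sets. The simulated noise had 1 spread for all probe sets of like signal, so probe sets noisier than others of like signal were not covered. Members nearer the floor, or with unlike changes in the genotypes, were not covered by the simulation either. A 2-fold ratio was counted in array pairs.

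The annotation gave 1 symbol to 34945 probe sets, several to 932 and none to 9160. A gene was summarised by its brightest probe set. The members and lists were chosen with earlier results of these data known. All members are named. By the rule for other genes, those of the lists that lie above the floor or define a cell type could be named, of which the text takes examples chosen with their values known, and so could the 3 nearest patterns of C1qb and Slc11a1. Alternatives covered the floor, filter, normalization, variance trend and each array left out.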

Additional observations from a re-analysis of the deposited data

Results flagged for a closer look

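For the following members the effect pointed in opposite directions in the groups compared, with 1 array pair on each side, so none of these differences was tested. The knockout over wild-type log2 ratio of C1qb was 0.55 in separate culture and -0.33 in co-culture. That of Cd5l was -0.32 and 0.32. That of Csf1r was -0.17 and 0.051, that of Slc11a1 0.062 and -0.055, and that of Id3 -0.13 and 0.014. The co-culture over separate log2 ratio of Laptm5 was 0.14 in wild type and -0.29 in knockout, and that of Csf1r -0.19 and 0.023.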

How the results depend on the processing

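The number of calls depended strongly on the setting, and the cause was not tested. Against 1322 probe sets called by culture, 2002 were called with log2(signal + 16), 688 after quantile normalization, 14 without the variance trend and 0 with no filter. Against 35 called by genotype, 185 were called without a floor, 245 with log2(signal + 16), 200 among probe sets above the floor on all arrays, 1 after quantile normalization, 0 without trend and 0 with no filter. Of the members 2 were called by culture, but 1 after quantile normalization, 0 without trend, 0 with no filter and, as an alternative chosen after seeing the data, 1 without probe sets named _x_at. By genotype 0 of the 8 were called in each of the 7 fits.

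Without a floor the 2-fold counts by culture were 468 higher and 243 lower in wild type, against 194 and 106, and 366 and 292 in knockout, against 147 and 133. By genotype they were 191 and 136 in separate culture, against 41 and 39, and 151 and 176 in co-culture, against 32 and 45. As the median over probe sets the level of Csf1r was 0.710 and that of Laptm5 0.590 times the array median.

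Signs turned for 2 genotype estimates near 0: Cd5l at 0.000436 with log2(signal + 16) and Slc11a1 at -0.013 after quantile normalization. With 1 array left out in turn, which allows no test, the culture change of Slc11a1 was 2.32-fold to 2.51-fold and that of C1qb 1.44-fold to 2.63-fold. These are the ratios within each genotype again and add no separate check.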
